A study of Mus musculus with 40 samples.

Results

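The Phf11 cluster of the mouse comprises 4 genes that lie side by side on chromosome 14, Phf11a, Phf11b, Phf11d and Phf11c in ascending order of position. The 4 genes were chosen by name, out of 56748 genes in the deposited gene table, because Phf11d was higher in epiblast-like cells (EpiLCs) without lamins and LBR than in wild type (WT) EpiLCs. Comparisons that hold the libraries of EpiLCs without lamins and LBR are therefore given as descriptions without a test. The WT EpiLC libraries were the other side of that choice, so tests that hold them are not free of it. Phf11b, Phf11c and Phf11d were among the 23399 genes that passed the filter on low counts. Phf11a did not pass and is described by its reads alone.

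Phf11 genes encode proteins with a plant homeodomain (PHD) finger, a zinc-binding fold found in many chromatin-associated proteins. Humans have a single PHF11 gene, known for its expression in lymphocytes, its regulation of T helper cytokine genes and its partnership with the single-strand DNA binding complex RPA at resected DNA ends. Mice carry several copies, and their expression is known to be raised by interferon in immune cells. The cluster lies between Rcbtb1 and Setdb2, which encodes a protein of the H3K9 methyltransferase family.

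Total RNA was sequenced from 40 cultures of mouse embryonic stem (mES) cells and EpiLCs. mES cells were held in naive pluripotency in medium with 2i and LIF and collected at 48 h, and EpiLCs, a model of primed pluripotency, were collected after 48 h in N2B27 medium to which FGF (20 ng/mL) and Activin A (12 ng/mL) had been added. The genotypes were WT, LBRKO (the lamin B receptor gene Lbr disrupted by CRISPR-Cas9 in WT cells), TKO (Lmna, Lmnb1 and Lmnb2 deleted) and QKO (Lbr disrupted in TKO cells), with 8 WT libraries and 4 libraries of each mutant at each stage. Each replicate was 1 well of a culture plate, so p-values measure the spread between wells, which is not a spread between independently derived lines. QKO cells were a single surviving clone, TKO and WT cells were littermate lines, and TKO cells carried an extra chromosome 8, some of them without a Y chromosome. WT cells were mostly but not all of normal karyotype, with some that lacked the Y chromosome and some that also had extra copies of chromosomes 6 and 8. Several LBRKO clones existed, and neither the clone sequenced nor the WT wells that belonged with each mutant can be read from the labels.

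The libraries held between 22594640 and 48863506 reads in genes. Lmnb1 and Lmnb2 transcripts in TKO and QKO cells were between 0.163% and 4.08% of the WT mean of the same stage, and Lmna transcripts between 27.5% and 74.1%. Lbr transcripts remained at 56.1% to 71.3% of WT in LBRKO and QKO cells, and the RNA level does not check an edit of the coding sequence. By the study's description, 1 of the 2 Lbr deletions in the QKO clone keeps the reading frame. The study also reports depletion of LBR protein by western blot, and no LBR found by immunostaining in LBRKO and QKO mES cells. For TKO mES cells it reports qPCR checks that found expression of the lamin genes absent. In EpiLCs the 6 primed markers matched in the table (Fgf5, Pou3f1, Dnmt3b, Otx2, Sall2 and Zic2) were higher than in mES cells of the same genotype in all 4 genotypes.

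All 4 members are read from the minus strand of GRCm39. Phf11a (ENSMUSG00000044703.6) spans chr14:59514362-59534971, Phf11b (ENSMUSG00000091649.4) chr14:59558413-59578800, Phf11d (ENSMUSG00000068245.15) chr14:59584856-59602919 and Phf11c (ENSMUSG00000091144.3) chr14:59618282-59632830. Together they cover 118469 bases, with gaps of 23441, 6055 and 15362 bases between them. Their exons cover 1354, 1184, 4498 and 3459 bases for Phf11a, Phf11b, Phf11d and Phf11c. A pseudogene named Phf11 lies beside Phf11a at chr14:59482149-59497629 and did not pass the filter.

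The members are near copies of each other, and this sets how their reads can be told apart. Coding sequences of Phf11a and Phf11b were identical at 97.1% of aligned bases, those of Phf11a and Phf11d at 89.1%, of Phf11b and Phf11d at 88.5%, and those of Phf11c were identical to the other members at 85.2% to 85.6%. The longest unbroken run shared by coding sequences was 124 bases for Phf11c and Phf11d and 122 bases for Phf11a and Phf11b. Of all stretches of 100 bases in the members' transcripts, 7.02% of those of Phf11a, 10.2% of Phf11b, 5.86% of Phf11c and 3.35% of Phf11d also occurred in another Phf11 gene. For stretches of 150 bases, the length of each read of a pair, the shares were 0.266%, 0.956%, 4.08% and 2.29%. One such run of 89 bases is shown because it is identical in Phf11a, at chr14:59514845-59514933, and in Phf11d, at chr14:59586664-59586752 (GRCm39, minus strand, 5′ to 3′). The run is shorter than a read:
Phf11a and Phf11d: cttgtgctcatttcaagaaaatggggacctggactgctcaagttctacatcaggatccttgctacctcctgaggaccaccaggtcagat

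The bases before the members' starts also fall into groups. Over the 250 bases before the outermost annotated start, Phf11a and Phf11b were identical at 99.2% of 242 aligned bases, and Phf11d was identical to Phf11a at 75.9% of 145 aligned bases. Phf11c aligned with the others over at most 20 bases. The 150 bases before each start are printed to show this difference, as the minus strand of GRCm39 from 5′ to 3′, with motif matches in capitals. They cover chr14:59534974-59535123 for Phf11a, chr14:59578811-59578960 for Phf11b, chr14:59602946-59603095 for Phf11d and chr14:59632831-59632980 for Phf11c:
Phf11a: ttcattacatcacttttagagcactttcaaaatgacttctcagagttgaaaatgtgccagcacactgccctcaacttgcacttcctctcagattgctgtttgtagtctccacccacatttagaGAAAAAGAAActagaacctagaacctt
Phf11b: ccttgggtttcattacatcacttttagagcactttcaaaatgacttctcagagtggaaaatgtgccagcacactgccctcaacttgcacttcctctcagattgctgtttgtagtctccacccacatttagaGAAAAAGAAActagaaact
Phf11d: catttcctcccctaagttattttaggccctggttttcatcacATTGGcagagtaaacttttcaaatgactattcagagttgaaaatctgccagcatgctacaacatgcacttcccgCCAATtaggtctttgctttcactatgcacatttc
Phf11c: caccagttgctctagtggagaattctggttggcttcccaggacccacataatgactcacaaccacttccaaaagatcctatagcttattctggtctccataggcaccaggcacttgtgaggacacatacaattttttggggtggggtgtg

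Both strands of these windows were searched for the core of the interferon-stimulated response element (GAAANNGAAA), the GAS element (TTCNNNGAA), the TATA box (TATAAA), the CCAAT box (CCAAT), the E-box (CACGTG) and the octamer (ATGCAAAT). Phf11a and Phf11b each held 1 match to the interferon element core, 27 to 18 and 19 to 10 bases before the start, and no such match was in the window of Phf11d or Phf11c. Among 21770 mouse promoter windows of the same length, 3.44% held this motif. Phf11d held 2 matches to the CCAAT box, 34 to 30 and 108 to 104 bases before the start, the second on the other strand. Of all windows, 36.1% held a CCAAT match. The other motifs had no match in any of the 4 windows, and they occurred in 7.82% (GAS), 12.5% (TATA), 5.69% (E-box) and 1.52% (octamer) of all windows. These matches describe letters only and say nothing about which factors bind.

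Phf11d supplied nearly all uniquely mapped reads of the cluster. Over the 40 libraries it held 57058 reads, or 97.1% of those of the 4 members, against 1406 for Phf11c, 261 for Phf11b and 40 for Phf11a. Per kilobase of exon, a scale on which genes can be compared, the mean level in WT mES cells was 15.3 CPM for Phf11d, 0.286 CPM for Phf11c and 0.287 CPM for Phf11b. CPM is the usual count scaled for depth, here relative to the summed reads of tested genes with edgeR's TMM factors.

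In WT mES cells, Phf11d stood at 66.3, 70.6, 68.3, 70.0, 62.5, 66.5, 68.3 and 76.7 CPM in replicates 1 to 8. The LBRKO mES libraries held 49.2, 50.2, 52.3 and 48.0 CPM. TKO mES libraries were at 81.2, 78.1, 79.3 and 78.3 CPM. QKO mES libraries were at 100.3, 94.2, 95.6 and 98.5 CPM. In mES cells Phf11d was thus lowest in LBRKO, then WT, then TKO, then QKO, and the libraries of these 4 genotypes did not overlap. WT and TKO, neighbours in that order, are the pair whose difference did not pass the test that follows.

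Against WT, Phf11d was lower in LBRKO mES cells by a log2 fold change of -0.46 ± 0.09 (SE; adjusted p = 0.000175, edgeR's quasi-likelihood test) and higher in QKO mES cells by 0.50 ± 0.09 (adjusted p = 1.18e-05, same edgeR test). The difference in TKO mES cells, 0.21 ± 0.09, did not pass (adjusted p = 0.101, same edgeR test). QKO exceeded TKO mES cells by 0.29 ± 0.10 (adjusted p = 0.0402, same edgeR test), a call that was lost when any 1 of the 8 libraries was left out (adjusted p 0.0536 to 0.0837, edgeR) and in the multimapped counts (adjusted p = 0.0685, edgeR). The effect in QKO mES cells differed from the sum of the LBRKO and TKO effects by 0.75 ± 0.14 on the log2 scale (adjusted p = 6.65e-05, edgeR). In bulk RNA, fewer cells with a transcript and less transcript per cell cannot be told apart.

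None of these mES changes reached 2-fold, so none of the 3 tested members counted as called (adjusted p under 0.05 and over 2-fold) in any mES comparison with WT. Of all genes tested, 6.31% were called for LBRKO, 6.45% for TKO and 17.2% for QKO mES cells. At an unadjusted p under 0.05, 1 member passed for LBRKO, 1 for TKO and 2 for QKO in edgeR, and DESeq2 also called no member.

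Passage from naive mES cells to EpiLCs lowered Phf11d in every genotype, to different extents. In WT EpiLCs it stood at 2.63, 1.97, 2.07, 2.23, 3.66, 3.26, 2.79 and 3.40 CPM. Replicates 1 to 4 did not overlap with replicates 5 to 8, and the labels give no reason for this split of the WT wells. The 2 sets also differed in depth, and the part of depth in the split was not tested. LBRKO EpiLCs held 6.27, 8.15, 6.88 and 8.41 CPM. TKO EpiLCs held 2.52, 3.12, 1.80 and 3.00 CPM, within the range of WT EpiLCs except for replicate 3. QKO EpiLCs held 41.4, 38.0, 44.0 and 42.9 CPM, the values by which the cluster was chosen.

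As a share of the mES level of the same genotype, WT EpiLCs kept 4.01% of Phf11d, TKO EpiLCs 3.29%, LBRKO EpiLCs 14.9% and QKO EpiLCs 42.8%. The log2 change from mES cells to EpiLCs was -4.62 ± 0.09 in WT (adjusted p = 2.62e-35), -4.91 ± 0.14 in TKO (adjusted p = 9.88e-30) and -2.75 ± 0.12 in LBRKO (adjusted p = 2.04e-23), each by edgeR's quasi-likelihood test. In QKO it was -1.22 ± 0.11, given as a description. The fall was smaller in LBRKO than in WT by 1.87 ± 0.14 (adjusted p = 4.22e-13, edgeR), whereas the fall in TKO differed from that in WT by -0.30 ± 0.16 and did not pass (adjusted p = 0.299, edgeR). The WT EpiLC libraries in these tests also took part in the choice of the genes.

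**Figure D1:**
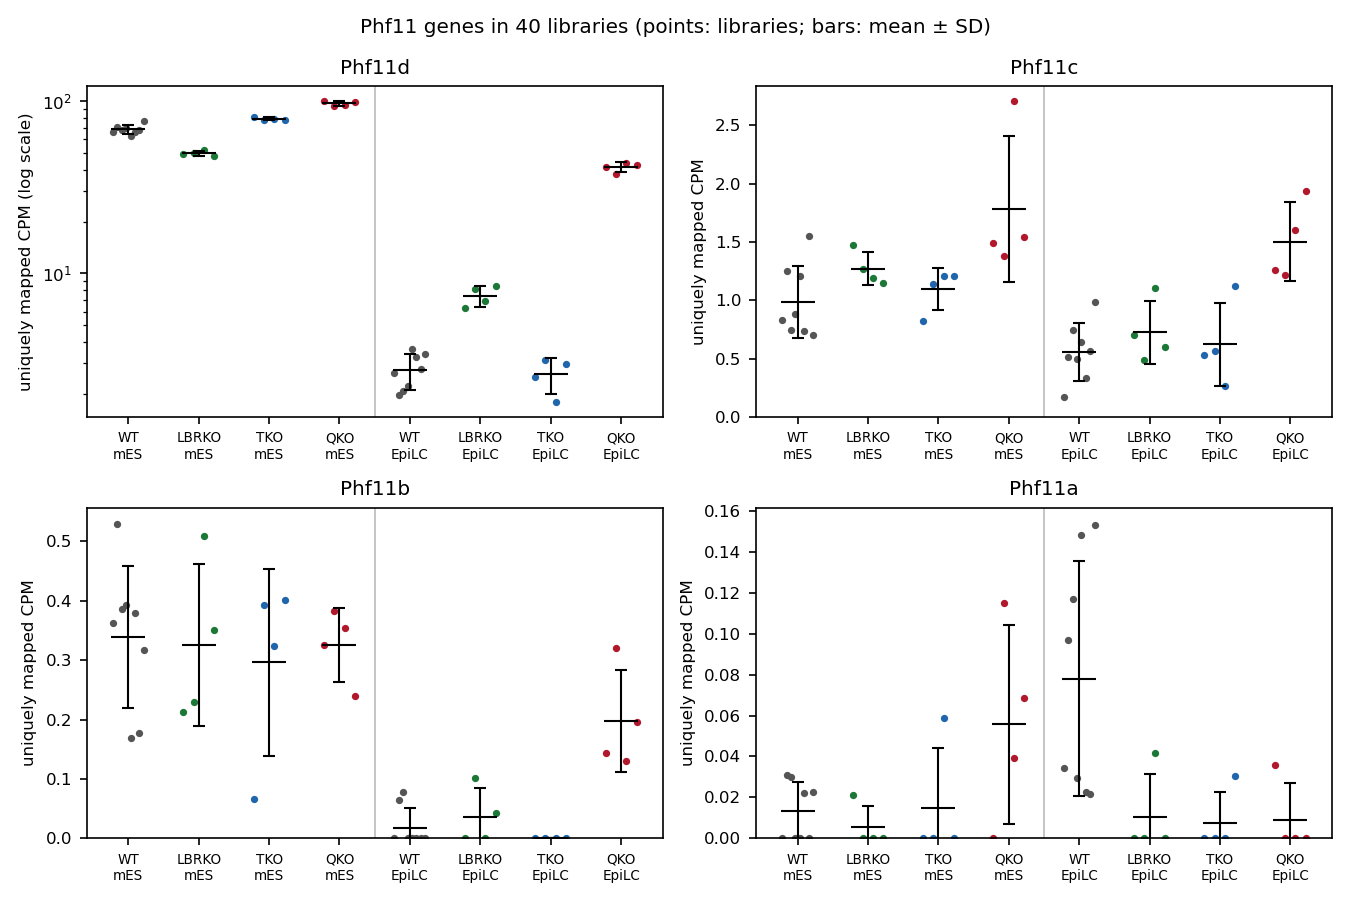
Uniquely mapped CPM of Phf11d (log axis), Phf11c, Phf11b and Phf11a (linear axes from 0) in the 8 groups, with 1 point per library and bars for the mean ± SD. Phf11d falls from 62.5 to 76.7 CPM in WT mES cells to 1.97 to 3.66 CPM in WT EpiLCs, while QKO EpiLCs sit between 38.0 and 44.0 CPM.

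Within EpiLCs, Phf11d was higher in LBRKO than in WT by a log2 fold change of 1.41 ± 0.11 (adjusted p = 8.48e-14, edgeR), and the libraries did not overlap. Those WT libraries were part of the comparison that chose the genes. The difference was 1.73 against WT replicates 1 to 4 alone and 1.18 against WT replicates 5 to 8 alone, the set nearer to LBRKO in depth, and both passed the test. TKO EpiLCs differed from WT by -0.09 ± 0.13, which did not pass (adjusted p = 0.714, edgeR). QKO EpiLCs exceeded WT by 3.89 ± 0.10 and TKO by 3.98 ± 0.13, both given without a test. The difference of QKO from the sum of the LBRKO and TKO effects was 2.58 ± 0.17 in EpiLCs, also as a description.

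Of the 3 tested members, Phf11d was the only one called in LBRKO against WT EpiLCs, and none was called in TKO against WT EpiLCs (none at an unadjusted p under 0.05 in edgeR, and none by DESeq2). The background was 5.67% of genes called for LBRKO, 2.91% for TKO and 21.2% for QKO EpiLCs, and nothing is read from the last of these because that contrast chose the genes. For the passage, 2 of 3 members were called as lower in WT, LBRKO and TKO, Phf11d and Phf11b, against 31.1%, 26.5% and 30.3% of all genes called in either direction. Phf11b passed the filter through the groups in which it was high, so nothing is read from this count. Phf11d was the 1 member called for the difference in passage between LBRKO and WT, where 6.0% of all genes were called.

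Markers of naive pluripotency moved in some of the same libraries. The summed CPM of 8 naive markers (Zfp42, Klf4, Tfcp2l1, Esrrb, Nanog, Prdm14, Tbx3 and Nr0b1) ranged from 113 to 183 in WT EpiLCs, from 141 to 169 in TKO, from 165 to 199 in QKO and from 232 to 353 in LBRKO EpiLCs, against 4099 to 4790 in WT mES cells. None of the 8 was at 0 in an EpiLC group mean. Against WT EpiLCs, 3 of the 8 were called higher and 0 lower in LBRKO, with a median log2 fold change of 0.83. In TKO 0 were called, with a median of -0.23. In QKO 4 met the thresholds as higher and 1 as lower, with a median of 0.70, as a description. Of all genes, 5.67%, 2.91% and 21.2% were called in these comparisons. EpiLCs kept a median of 2.45% of the mES level of these markers in WT, 6.17% in LBRKO, 1.83% in TKO and 3.21% in QKO, below the share of Phf11d kept in each genotype. Single markers kept a larger share than Phf11d in every genotype. These were Nanog (9.56%), Nr0b1 (8.14%) and Zfp42 (7.28%) in WT, Nr0b1 (12.7%), Nanog (10.4%) and Zfp42 (4.68%) in TKO, Nr0b1 (62.4%) and Zfp42 (18.7%) in LBRKO, and Nr0b1 (43.7%) in QKO. The part of these markers' levels in the Phf11d result was not tested.

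Markers of other cell types had low summed levels, and the cells from which their reads came were not identified. Of the leukocyte markers, the pan-leukocyte gene Ptprc averaged at most 0.588 CPM and the myeloid adaptor Tyrobp at most 0.0167 CPM in any group, and Ptprc was at or below 0.0192 CPM in every mES group, where Phf11d was highest. The T cell receptor subunit Cd3e reached 10.04 CPM in WT and 13.9 CPM in LBRKO mES cells but 2.28 CPM in QKO mES cells. The 8 leukocyte markers summed to 1.71 to 15.4 CPM over the 40 libraries, 6 primitive endoderm markers to 3.02 to 15.3 CPM and 5 fibroblast markers to 2.85 to 14.4 CPM.

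Phf11c was a low transcript with a smaller difference between stages. WT mES libraries held 0.700 to 1.55 CPM with a median of 0.858, and WT EpiLC libraries 0.171 to 0.986 CPM with a median of 0.540, so that the stages overlapped. LBRKO mES libraries held 1.47, 1.26, 1.19 and 1.15 CPM, and TKO mES libraries 0.826, 1.14, 1.21 and 1.21 CPM. QKO mES libraries held 1.49, 1.38, 2.71 and 1.54 CPM. LBRKO EpiLCs held 0.704, 0.485, 1.11 and 0.596 CPM and TKO EpiLCs 0.530, 0.568, 0.268 and 1.12 CPM, both overlapping with WT EpiLCs. QKO EpiLCs held 1.26, 1.22, 1.604 and 1.93 CPM, above every WT EpiLC library.

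Phf11c was higher in QKO than in WT mES cells by a log2 fold change of 0.84 ± 0.28 (adjusted p = 0.0142, edgeR's quasi-likelihood test), a difference under 2-fold that fell to 0.58 (adjusted p = 0.139, edgeR) without QKO replicate 3. Its change from mES cells to EpiLCs in WT was -0.81 ± 0.25 (adjusted p = 0.0046, edgeR). In LBRKO it was -0.80 ± 0.34 (adjusted p = 0.0429, edgeR), a value that no longer passed without any 1 of 6 of the 8 libraries (LBRKO mES replicates 1, 2 and 3 and LBRKO EpiLC replicates 1, 2 and 4), and in TKO it was -0.79 ± 0.36 and did not pass (adjusted p = 0.0635, edgeR). The TKO change passed without TKO EpiLC replicate 4 (-1.30, adjusted p = 0.00516, edgeR) or without TKO mES replicate 1 (-0.92, adjusted p = 0.0422, edgeR). In QKO EpiLCs Phf11c exceeded WT EpiLCs by 1.42 ± 0.29, as a description.

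Phf11b had few reads and was nearly silent in EpiLCs other than QKO. WT mES libraries held 10, 17, 13, 12, 7, 17, 7 and 14 reads, and WT EpiLC libraries 0, 2, 2, 0, 0, 0, 0 and 0 reads. The LBRKO libraries held 10, 10, 24 and 14 reads in mES cells and 0, 4, 0 and 2 in EpiLCs. TKO held 2, 11, 11 and 11 reads in mES cells and 0 in each of 4 EpiLC libraries. QKO held 10, 10, 9 and 7 reads in mES cells and 4, 10, 4 and 7 in EpiLCs, and it was the only genotype with reads in every EpiLC library.

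By summed reads scaled to library size, Phf11b was 24.5-fold higher in WT mES cells than in WT EpiLCs (95% counting interval 9.26 to 91.7) and 9.69-fold higher in LBRKO mES cells than in LBRKO EpiLCs (4.19 to 27.5). In TKO, with 35 reads against 0, it was at least 10.7-fold higher in mES cells, with the absent reads set at a floor of 3 over the group. QKO EpiLCs stood 14.8-fold above WT EpiLCs (5.11 to 58.5), as a description. These intervals cover counting error only. Of the unique reads of the members, Phf11b held 0.471% in WT mES cells, 0.385% in WT EpiLCs and 0.460% in QKO EpiLCs. Its share lay between 0.325% (QKO mES cells) and 0.633% (LBRKO mES cells) in every group except TKO EpiLCs, which held no read. Whether some of these reads came from the similar and far more abundant Phf11d was not tested. Phf11b passed the filter on low counts through libraries in which it was high, so its fitted log2 change in passage, -4.29 ± 0.59 in WT and -3.12 ± 0.70 in LBRKO, is given as a description. In mES cells the fitted differences of Phf11b from WT were -0.05 ± 0.47 for LBRKO, -0.19 ± 0.50 for TKO and -0.05 ± 0.49 for QKO, none of which passed.

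Phf11a had a different pattern in uniquely mapped reads. Its 40 reads were spread as 4 over 8 WT mES libraries and 23 over 8 WT EpiLC libraries, every one of which held at least 1 read. The mutants held 1, 2 and 6 reads in LBRKO, TKO and QKO mES cells and 2, 1 and 1 reads in LBRKO, TKO and QKO EpiLCs. With at most 7 reads in a library, differences between groups were not tested.

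The table made from alignments that allowed many positions per read was set beside the uniquely mapped counts. Phf11d rose from 57058 to 58519 reads (1.03-fold), Phf11c from 1406 to 1641 (1.17-fold), Phf11b from 261 to 359 (1.38-fold) and Phf11a from 40 to 338 (8.45-fold). For Phf11a the added reads turned the order of the stages. Multimapped counting gave 107 reads in WT mES cells and 27 in WT EpiLCs, where unique counting gave 4 and 23. It gave 31, 69 and 63 reads in LBRKO, TKO and QKO mES cells, and 5, 2 and 34 in LBRKO, TKO and QKO EpiLCs. The groups with the most added Phf11a reads were those in which Phf11d was high. Over stretches of 150 bases, Phf11a shared 4 of 1503 with Phf11c and none with Phf11d. Whether the added reads came from Phf11a or from a similar member cannot be told apart with these counts.

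**Figure D2:**
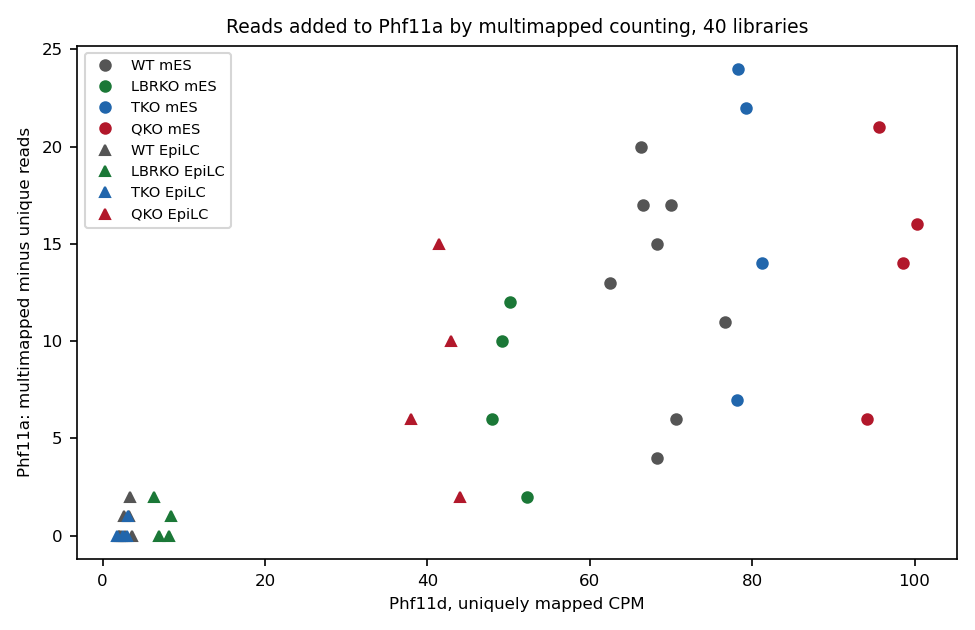
Reads that multimapped counting added to Phf11a (vertical axis, multimapped minus unique reads) against the uniquely mapped CPM of Phf11d (horizontal axis), with 1 point for each of 40 libraries, circles for mES cells and triangles for EpiLCs. WT, LBRKO and TKO EpiLC libraries gained at most 2 reads, and mES and QKO EpiLC libraries gained at least 2.

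For Phf11d both tables gave close fold changes. In multimapped counts LBRKO differed from WT by -0.52 ± 0.09 in mES cells and by 1.42 ± 0.11 in EpiLCs, QKO from WT mES cells by 0.43 ± 0.09, and the passage of LBRKO from that of WT by 1.93 ± 0.14. Phf11c fell more in the passage of WT cells when multimapped reads were counted, with a log2 change of -1.15 ± 0.21 against -0.81 with unique reads. Its passage in TKO was -1.15 ± 0.31 in multimapped counts and then passed the test (adjusted p = 0.00147, edgeR). The change of Phf11b in WT was -4.45 ± 0.53 in multimapped counts.

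**Figure D3:**
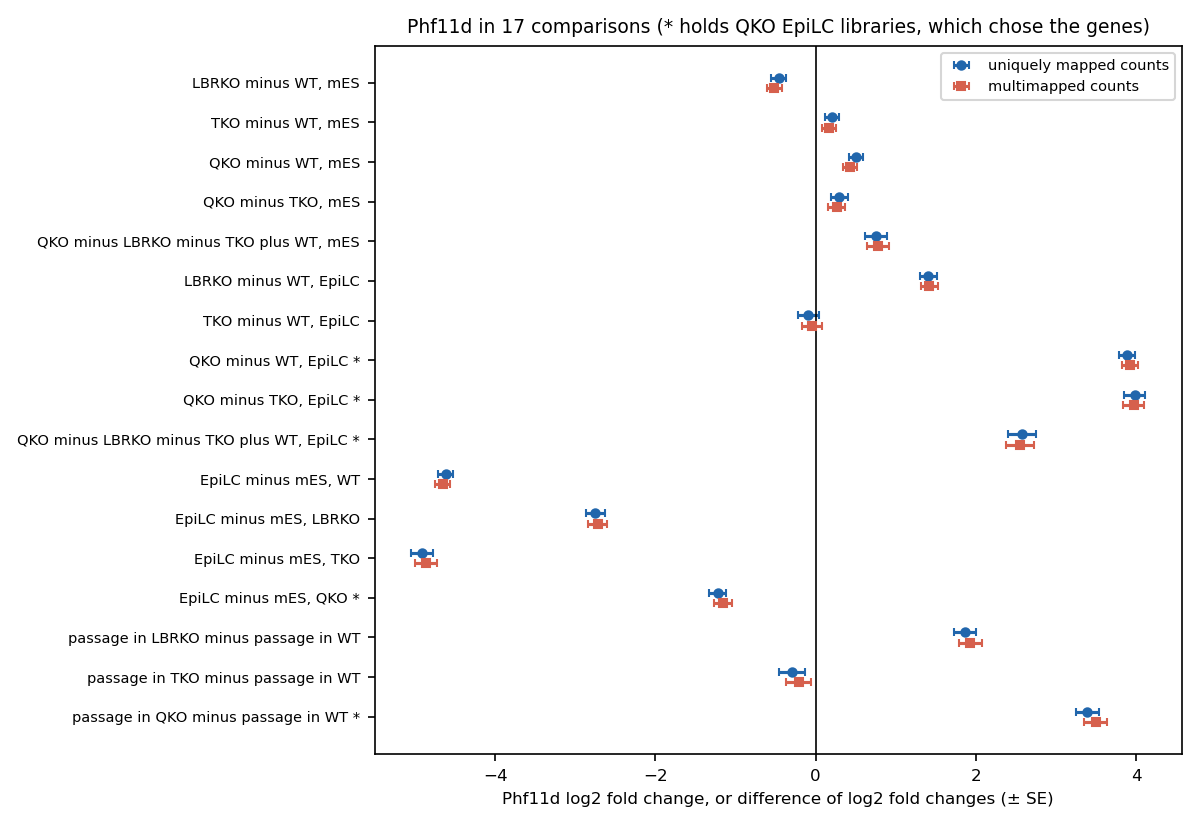
Log2 fold change of Phf11d ± SE in 17 comparisons, or the difference of log2 fold changes for the interaction terms, from uniquely mapped (circles) and multimapped (squares) counts. Comparisons marked with an asterisk hold the QKO EpiLC libraries and carry no test, and in each row the paired points lie close together.

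Transposable element (TE) copies inside the cluster gave a separate reading of transcription outside exons, since each copy has its own count of uniquely mapped reads. The table held 181 copies between the lowest start and the highest end of the members, 120 in introns, 57 between members and 4 in exons. At least 1 read fell on 143 of them and 20 passed the filter, 7 in introns, 12 between members and 1 in an exon of Phf11d. All 20 lay within Phf11d or in the gap between it and Phf11c, upstream of the Phf11d start. Copies between members held 69.7% of the 14708 reads over copies, copies in introns 27.0% and copies in exons 3.37%. A fragment may be counted both over a gene and over a copy inside that gene.

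The copy with the most reads was LTRIS2_dup1161, a long terminal repeat (LTR), the regulatory end of a retrovirus-like element. It lies at chr14:59607834-59608004, 4915 bases upstream of the Phf11d start and outside every annotated exon, on the same strand as Phf11d. Its 171 bases are printed because 5266 of the 14708 reads over copies in the cluster fell on it (GRCm39, minus strand, 5′ to 3′), and none of the 6 motifs occurs in them:
LTRIS2_dup1161: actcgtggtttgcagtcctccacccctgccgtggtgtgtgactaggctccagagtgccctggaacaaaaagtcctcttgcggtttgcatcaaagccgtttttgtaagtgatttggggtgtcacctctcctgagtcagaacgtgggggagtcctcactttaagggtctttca

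LTRIS2_dup1161 had 5.72, 7.39, 5.47, 4.81, 6.31, 5.57, 7.46 and 8.79 CPM in WT mES cells. The other mES groups overlapped with this range, with 6.45, 6.0, 5.16 and 5.51 CPM in LBRKO, 5.22, 6.46, 7.45 and 7.27 CPM in TKO and 8.64, 6.09, 8.33 and 8.47 CPM in QKO. In WT EpiLCs it had 0.308, 0.226, 0.0781, 0.323, 0.668, 0.337, 0.346 and 0.307 CPM. LBRKO EpiLCs held 0.727, 0.766, 0.648 and 0.937 CPM, above every WT EpiLC library except replicate 5, which exceeded LBRKO replicate 3. TKO EpiLCs held 0.177, 0.178, 0.115 and 0.273 CPM, and QKO EpiLCs 2.95, 3.198, 3.05 and 3.11 CPM.

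The LTR copy changed from mES cells to EpiLCs by -4.25 ± 0.18 in WT, -2.90 ± 0.23 in LBRKO and -5.10 ± 0.29 in TKO on the log2 scale. LBRKO exceeded WT in EpiLCs by 1.19 ± 0.23 (adjusted p = 0.000317, edgeR's quasi-likelihood test over 134958 copies), and the fall in LBRKO was smaller than in WT by 1.35 ± 0.29 (adjusted p = 0.00559, same edgeR test). In mES cells its differences from WT were -0.16 for LBRKO, 0.03 for TKO and 0.29 ± 0.17 for QKO, none of which passed. TKO differed from WT EpiLCs by -0.81 ± 0.32 and did not pass (adjusted p = 0.208, edgeR). QKO EpiLCs exceeded WT EpiLCs by 3.19 ± 0.20, as a description.

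LTRIS2 copies over the whole genome gave other values. Of 114 tested LTRIS2 copies, this copy ranked 4 by reads and held 5.06% of their reads. It is included in the counts that follow. In the passage of WT cells 64 of the 114 were called lower and 2 higher, where 20.7% of all tested TE copies were called in either direction. In LBRKO against WT EpiLCs 1 was called higher, the copy beside Phf11d itself, and 5 lower, where 1.46% of all copies were called. In QKO against WT mES cells 70 were called higher and 0 lower, with a median log2 fold change of 1.41, while the copy beside Phf11d did not pass there. Of all copies 25.4% were called in that comparison, with a median of 0.77. Copies with few reads may have passed the filter through the groups in which they were high. The counts of LTRIS2 copies called are therefore not read against the background.

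**Figure D4:**
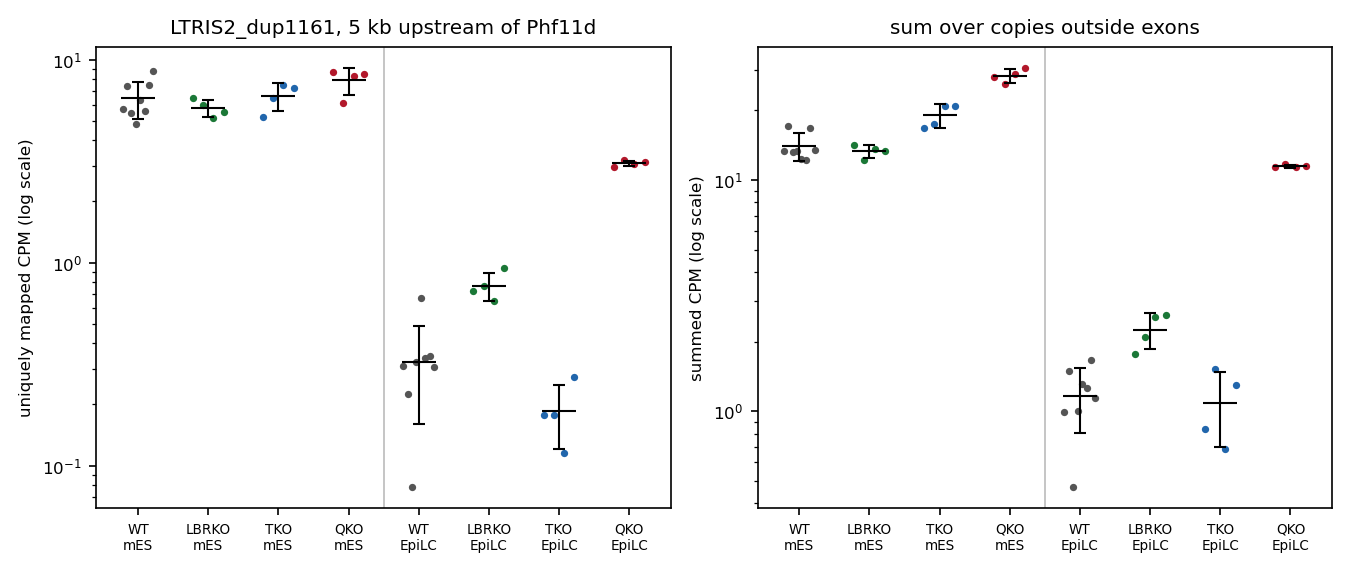
CPM of LTRIS2_dup1161 (left) and summed CPM of all TE copies in the cluster outside exons (right), both on log axes, with 1 point per library in 8 groups and bars for the mean ± SD. The LTR copy reaches 2.95 to 3.198 CPM in QKO EpiLCs against 0.0781 to 0.668 CPM in WT EpiLCs, and QKO mES libraries stand above WT mES libraries in the sum but not in the LTR copy.

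The next copies by level were RSINE1_dup90306 and Lx9_dup36157, a short and a long interspersed element 4414 and 3256 bases upstream of the Phf11d start. RSINE1_dup90306 was higher in QKO than in WT mES cells by 1.83 ± 0.31 on the log2 scale, with 1.57 to 2.61 CPM in QKO against 0.226 to 0.892 CPM in WT. Lx9_dup36157 was higher by 1.95 ± 0.38, with 1.98 to 2.30 CPM in QKO against 0.194 to 1.22 CPM in WT. In neither copy did the QKO and WT mES libraries overlap. B2_Mm1t_dup21080, in an intron of Phf11d, was higher by 1.34 ± 0.43 in QKO mES cells, where 0.589 to 1.61 CPM overlapped with 0.238 to 0.796 CPM in WT. The other 8 copies called higher in QKO mES cells were B3_dup121793, MTA_Mm_dup14577, B3A_dup74881, B4A_dup82137, RSINE1_dup90305, L1MdV_III_dup9584, RLTR40_dup2059 and RLTR4_MM-int_dup10707, in ascending order of log2 fold changes from 1.20 to 2.68.

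Upstream of the LTR copy, RLTR4_MM-int_dup10705, an internal part of a retrovirus-like element, differed by 1.27 ± 0.34 between QKO and WT mES cells. In EpiLCs it held 2, 5, 9 and 5 reads in LBRKO libraries against 1 read in 8 WT libraries, a ratio of 35.0 with a 95% counting interval from 5.63 to 1447. RLTR13D4_dup187, 780 bases upstream of the start, held 0, 0, 6 and 6 reads in LBRKO EpiLCs against 1 read in the 8 WT libraries, a ratio of 20.0 with an interval from 2.96 to 855. QKO EpiLCs held 119 reads over the first of these copies and 39 over the second. Each LBRKO ratio thus rests on 1 read in WT.

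**Figure D5:**
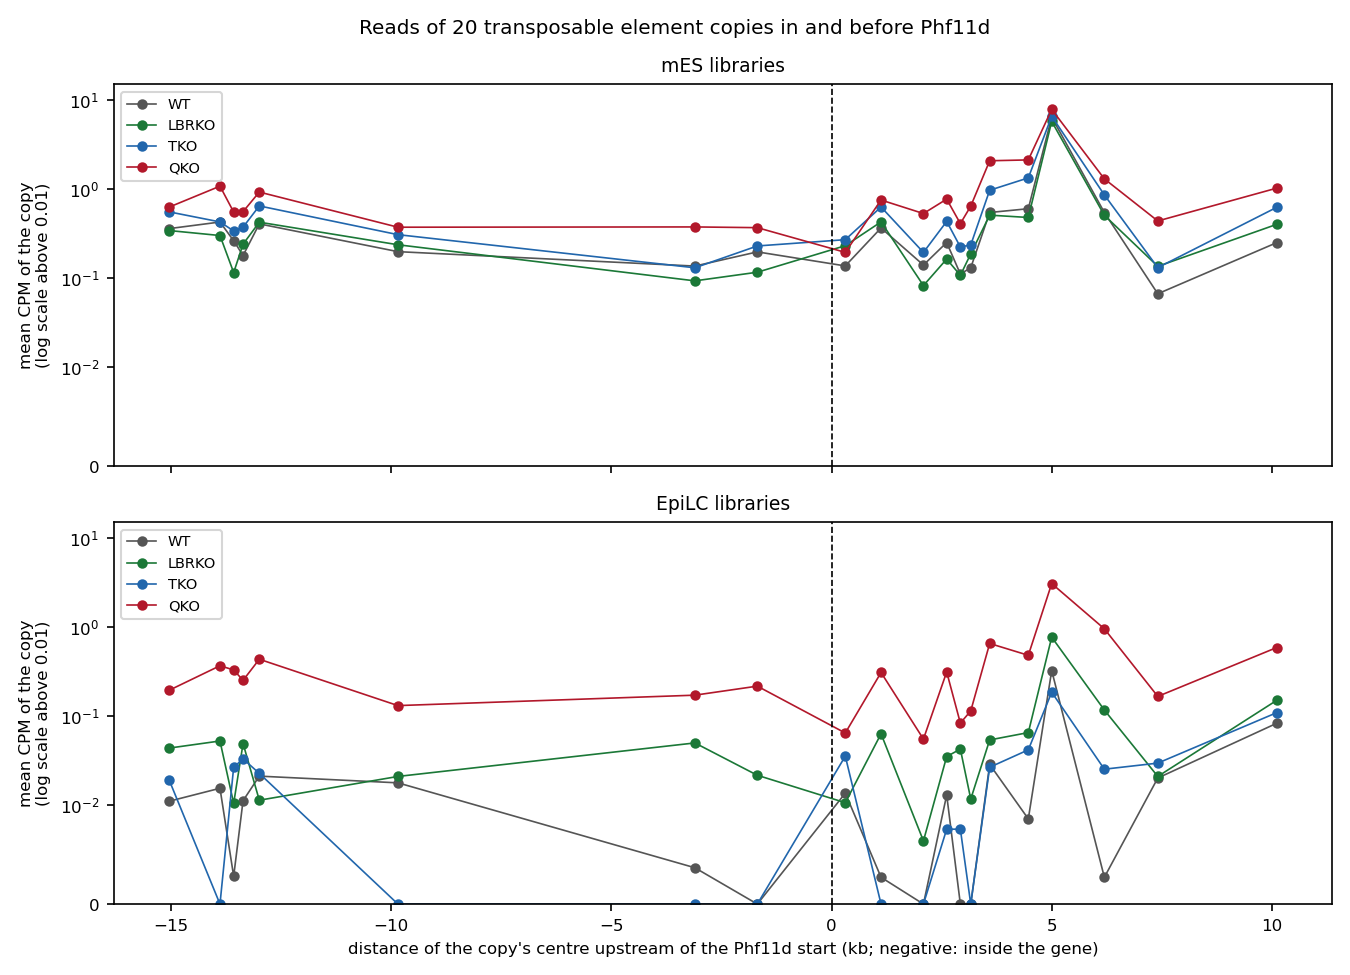
Mean CPM of the 20 tested TE copies against the distance of their centre upstream of the Phf11d start in kb (negative inside the gene), for mES cells (top) and EpiLCs (bottom), with a line for each genotype and a log axis above 0.01 CPM. The LTR copy at 5 kb is the peak in every group, and QKO lies above WT at each of the 20 copies in both stages.

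Over the 20 tested copies, none was called in LBRKO mES cells (1 at an unadjusted p under 0.05, edgeR), 2 were called higher in TKO mES cells and 12 higher in QKO mES cells, with none called lower. Their median log2 fold changes were -0.07, 0.73 and 1.39. Among all 134958 copies tested, 0.842%, 4.11% and 25.4% were called, and the medians were 0.27, 0.23 and 0.77, so that most tested copies were above WT in QKO mES cells. The filter used all groups, so a copy with few reads elsewhere could pass through the QKO libraries. RLTR4_MM-int_dup10707, for example, held 0 to 5 reads in WT and 8 to 15 in QKO mES libraries. The counts of higher copies may thus be partly fixed by the filter and are not read against the background. Against WT replicates 1 to 4 alone, 5 of the 20 copies were called in QKO mES cells and none in TKO mES cells. The copies called in TKO mES cells were RSINE1_dup90306 (1.16 ± 0.32) and L1MdV_III_dup9584 (1.31 ± 0.42), and neither was called without TKO replicate 1, 3 or 4. In EpiLCs 3 copies were called higher in LBRKO, the LTR copy and both low-count copies above, and 1 of them against WT replicates 5 to 8 alone. None was called in TKO (3 at an unadjusted p under 0.05, edgeR). The background was 1.46% and 2.55% of copies, with 30.9% for QKO EpiLCs, where 19 of the 20 copies met the same thresholds as a description.

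From mES cells to EpiLCs, 19 of 20 copies were called lower in WT, 14 in LBRKO and 19 in TKO, against 20.7%, 11.6% and 15.1% of all copies called in either direction. Most of the 20 had few reads in EpiLCs other than QKO and passed the filter through libraries in which they were high, so a count of lower copies was partly fixed by the filter and is not read against the background. The median log2 fold changes were -4.37, -2.71 and -4.90, and -4.20, -2.76 and -3.89 from summed reads with groups without reads set at 3 reads. In QKO 8 copies met the thresholds, with a median of -1.38, as a description. The passage of LBRKO differed from that of WT for 2 copies, LTRIS2_dup1161 and RLTR4_MM-int_dup10705, both higher, against 0.421% of all copies.

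The summed CPM of TE copies outside exons gave 1 value per library. It was 14.0 ± 1.93 in WT mES cells (SD, n = 8), 13.3 ± 0.82 in LBRKO, 19.0 ± 2.1995 in TKO and 28.3 ± 1.90 in QKO mES cells (n = 4 each). In EpiLCs it was 1.17 ± 0.36 in WT (n = 8), 2.25 ± 0.39 in LBRKO, 1.09 ± 0.39 in TKO and 11.5 ± 0.17 in QKO (n = 4 each). In exact permutation tests, which were two-sided and adjusted over 5 comparisons, QKO mES cells and LBRKO EpiLCs differed from WT (p = 0.00404, adjusted p = 0.0101 each, the smallest p that 4 against 8 libraries allow) and did not overlap with it. TKO mES cells also differed (exact p = 0.00808, adjusted p = 0.0135), with overlapping libraries. LBRKO mES cells (exact p = 0.659) and TKO EpiLCs (exact p = 0.747) did not pass. Relative to WT mES cells the sum was 2.02-fold higher in QKO, against a 1.41-fold difference of Phf11d reads in exons, and neither value is corrected for the median shift of all TE copies in QKO.

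Setdb2, the next gene upstream of Phf11c at chr14:59639458-59678333, had 23.7 ± 1.80 CPM in WT mES cells, 14.6 ± 1.22 in WT EpiLCs (SD, n = 8), 17.6 ± 2.24 in LBRKO EpiLCs and 16.1 ± 0.348 in QKO EpiLCs (n = 4). Its log2 change was -0.69 ± 0.06 in the passage of WT cells, and it was higher in LBRKO than in WT EpiLCs by 0.26 ± 0.08 (adjusted p = 0.00844, edgeR), both under 2-fold. Rcbtb1, on the other side, held 105 ± 8.21 CPM in WT mES cells (SD, n = 8) and 66.9 ± 1.69 in QKO mES cells (n = 4), a log2 change of -0.66 ± 0.06, while its change in WT passage was -0.04 ± 0.05.

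Of 18 genes within 500 kb other than the members, 7 were tested, Setdb2 and Rcbtb1 among them. None was called against WT in the 3 mutants in mES cells or in TKO EpiLCs, where 3, 2, 4 and 1 passed an unadjusted p under 0.05 in edgeR for LBRKO, TKO and QKO mES cells and TKO EpiLCs, and DESeq2 called none of them. Of all genes, 6.31%, 6.45%, 17.2% and 2.91% were called in these comparisons. Shisa2, which encodes a modulator of FGF and Wnt receptors, was called higher in LBRKO EpiLCs (1.13 ± 0.12), as 1 of the 7, where 5.67% of all genes were called. In the passage of WT cells Shisa2 (1.80 ± 0.11) and the lipid flippase gene Atp8a2 (4.89 ± 0.33) were called higher, against the direction of Phf11d. They were 2 of the 7, where 31.1% of all genes were called, so nothing is read from this count. As descriptions, QKO differed from WT EpiLCs by -2.50 ± 0.35 for Atp8a2 and by 0.77 ± 0.12 for Shisa2, both without overlap, and the passage of QKO differed from that of WT by -3.36 ± 0.64 for Atp8a2.

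A list of 59 interferon-response genes was compared because Phf11 genes are known as interferon-inducible, and 46 of them were tested. In LBRKO EpiLCs 3 were called higher and 2 lower, with a median log2 fold change of -0.05 against 0.00 for all genes. In TKO EpiLCs 1 was called higher and 3 lower (median -0.19 against -0.04), and in QKO EpiLCs 4 met the thresholds as higher and 7 as lower (median -0.20 against -0.01). In mES cells 2 were called higher and 3 lower in LBRKO, 1 higher and 10 lower in TKO and 3 higher and 12 lower in QKO, with medians of 0.02, -0.24 and -0.35 against 0.02, -0.01 and 0.01 for all genes. The share of all genes called was 5.67%, 2.91% and 21.2% in LBRKO, TKO and QKO EpiLCs and 6.31%, 6.45% and 17.2% in mES cells. As a description, 7 list genes met the thresholds as higher and 3 as lower in QKO against TKO EpiLCs, with 15.3% of all genes. For the passage of QKO against that of WT, 15 were higher and 5 lower, with 12.6% of all genes. The median there was 0.37 against -0.03 for all genes.

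Single genes of this list went in both directions. The RNA sensor gene Oas2 was higher in LBRKO than in WT EpiLCs (1.93 ± 0.20), as was the immunity-related GTPase gene Irgm1 (1.16 ± 0.25), and the gene of the immunoproteasome subunit Psmb8 was lower (-1.24 ± 0.34). The log2 change of Irgm1 was -3.16 ± 0.35 in TKO mES cells and -3.71 ± 0.38 in QKO mES cells. In the passage of WT cells 18 list genes were called higher and 11 lower, with 31.1% of all genes called. Oas1a and Xaf1, interferon-induced genes of RNA sensing and cell death, were among those that fell (-5.68 ± 0.13 and -5.73 ± 0.17). Oas1a had 39.2 CPM in WT mES cells, 0.785 in WT EpiLCs and 1.25 in QKO EpiLCs, and Xaf1 had 25.9, 0.508 and 0.825 CPM in the same groups. In QKO against WT EpiLCs the log2 difference was 1.82 ± 0.51 for the interferon-induced gene Ifit1, -2.61 ± 0.25 for Oasl2 and -1.87 ± 0.37 for Psmb8, each without overlap and as a description.

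A second list held 20 genes of DNA end resection and of the RPA complex, partners of human PHF11 and their pathway, and all 20 were tested. None passed both thresholds against WT in mES cells of any mutant or in LBRKO and TKO EpiLCs, by edgeR or by DESeq2. The same held for the passage of WT, LBRKO and TKO cells. Of all genes, 6.31%, 6.45% and 17.2% were called by edgeR for LBRKO, TKO and QKO mES cells. The shares were 5.67% and 2.91% for LBRKO and TKO EpiLCs, and 31.1%, 26.5% and 30.3% for the passage of WT, LBRKO and TKO. At an unadjusted p under 0.05 in edgeR, 10 passed for LBRKO, 8 for TKO and 9 for QKO in mES cells, and 8 for LBRKO and 5 for TKO in EpiLCs, with all 20 genes between -0.64 and 0.42 on the log2 scale. In the passage of WT cells 10 passed, of log2 changes from -0.65 (Brca1) to 0.65 (Rad50), and 14 and 11 passed in LBRKO and TKO. The share of all genes at an unadjusted p under 0.05 was not counted, so these counts are not read as many or few.

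By Pearson correlation of log2 CPM over all 40 libraries among 14091 genes, the patterns most like that of Phf11d were those of Arl14epl (r = 0.981), the bicarbonate transporter gene Slc4a5 (0.979), Plekhg1 (0.977), the D-glutamate cyclase gene Dglucy (0.975) and the actin regulator gene Was (0.974). These lie on other chromosomes, and the points share stage and genotype, so r is a description with no test. Dglucy, for example, had 31.6 CPM in WT mES cells, 2.72 in WT EpiLCs, 10.4 in LBRKO, 2.76 in TKO and 17.2 in QKO EpiLCs. The genes most like Phf11b were Egfl6 (0.919), Plekhg1 (0.914), Atp2b4 (0.911), Magea13 (0.907) and Mfge8 (0.904). The genes most like Phf11c, 15362 bases from Phf11d, were Neat1 (0.839), Ttn (0.820), Ap4m1 (0.814), Iffo1 (0.808) and Stard9 (0.806). Phf11b and Phf11c held 261 and 1406 reads over the 40 libraries, against 57058 for Phf11d. At so few reads counting noise lowers r, so the differences between these lists are not read as a result.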

How the data were processed

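Per the labels and the study's methods, reads were trimmed (cutadapt 2.5) and aligned to GRCm39 with GENCODE M30 (STAR 2.7.10a). The authors counted uniquely mapped reads per gene and per TE copy (featureCounts 1.6.4, raw counts) and made a further table of estimated counts for genes and TE families with TEcount from alignments at many positions. These deposited counts were not normalised by the authors. Estimated counts were rounded to whole numbers. Whether counting used strand is not given in the sources used here. Antisense reads therefore cannot be told apart.

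Genes were tested with edgeR 4.0.16 in R 4.3.3 (quasi-likelihood test, TMM scaling, filterByExpr, all 40 libraries with a mean per group, Benjamini-Hochberg adjustment over 23399 genes). Called means adjusted p under 0.05 and a change over 2-fold. The multimapped table was fitted alone (26508 features), and 134958 TE copies with the gene table's scaling. Sums were compared by two-sided exact permutation tests (SciPy 1.17.1). Scripts were tested on simulated data. Alternatives were DESeq2 1.42.0 and other filters, scalings and library sets.

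The members, gene lists and tests were chosen with earlier results of these data known. Named genes were the members, Phf11-named genes, neighbours within 500 kb, up to 3 called list genes per comparison with the largest changes and no overlap between libraries, the 5 genes most like each member, and TE copies that were among the 5 highest or called. Oas1a and Xaf1 levels in QKO EpiLCs, Dglucy levels, Brca1 and Rad50 were added after their values were seen. Promoter and coding sequences were read from GRCm39 with annotation GENCODE M39, in which 56017 of 56748 gene identifiers were found. Promoter windows were compared by local alignment (Biopython 1.88). No pair of libraries of a group held identical counts.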

Additional observations from a re-analysis of the deposited data

Results flagged for a closer look

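In 3 of 40 sets of replicates 1 library stood far from the others of its group, where chance gives about 1 in 20. Phf11c in QKO mES replicate 3 was 2.71 CPM, against 1.38 to 1.54 CPM in the other 3 libraries. LTRIS2_dup1161 in QKO mES replicate 2 was 6.09 CPM, against 8.33 to 8.64 CPM in the others. LTRIS2_dup1161 in WT EpiLC replicate 5 was 0.668 CPM, against 0.0781 to 0.346 CPM in the other 7.

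Other results are listed because an effect differed between groups by a test of the difference itself (edgeR's quasi-likelihood test). For Phf11d in mES cells the effect of QKO differed from the sum of the LBRKO and TKO effects by 0.75 on the log2 scale, since Phf11d was lower in LBRKO and higher in QKO than in WT. The passage of LBRKO cells to EpiLCs differed from that of WT cells by 1.87 for Phf11d, with all 4 LBRKO EpiLC libraries above all 8 WT libraries. It differed by 1.35 for LTRIS2_dup1161. For RLTR4_MM-int_dup10705 the fitted difference was 4.21, a value that depends on the prior count because the 8 WT EpiLC libraries held 1 read in all.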

How the results depend on the processing

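Of 1260 values recomputed under alternatives for 75 results, 1171 kept their direction and their side of the threshold or stayed within the spread between replicates. The number of members called did not move by over 1.5 times in any comparison, and the alternatives for TE copies were chosen after seeing the data. That rule allows a move from 2 to 3 members. In multimapped counts Phf11c was also called lower in the passage of WT cells (-1.15, adjusted p = 1.11e-05, edgeR) and of TKO cells (-1.15, adjusted p = 0.00147, edgeR). In unique counts it was called in TKO without TKO EpiLC replicate 4 (-1.30, adjusted p = 0.00516, edgeR). The cause was not tested for any value that moved.

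For Phf11d, QKO exceeded TKO mES cells by 0.26 without a filter on low counts (adjusted p = 0.098, edgeR) and by 0.26 in multimapped counts (adjusted p = 0.0685, edgeR), and by 0.28 to 0.31 when 1 library was left out, none of which passed. TKO against WT mES cells passed with DESeq2 (0.21, adjusted p = 0.0167) and in a fit of the mES libraries alone (0.22, adjusted p = 0.000565, edgeR). QKO against WT EpiLCs was 4.22 with WT replicates 1 to 4 and 3.67 with WT replicates 5 to 8. TKO against WT EpiLCs was 0.24 with WT replicates 1 to 4 and between -0.18 and 0.059 without 1 library. The difference in passage between TKO and WT was 0.037 with WT replicates 1 to 4 and -0.52 with WT replicates 5 to 8, the latter past the threshold (adjusted p = 0.0177, edgeR).

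Replicate numbers were not found to pair the samples. In 0 of 28 pairs of groups did every same-numbered pair of libraries deviate together (correlation over 0.1). With the replicate number as a block, Phf11d differed by 3.99 between QKO and WT EpiLCs, by 0.0015 between TKO and WT EpiLCs and by 0.29 between TKO and WT mES cells (adjusted p = 0.0207, edgeR), and the block did not change the number of members called in any comparison.

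With WT replicates 5 to 8 alone, Phf11b turned to 0.31 (LBRKO), 0.17 (TKO) and 0.30 (QKO) against WT in mES cells, to -0.17 for QKO against the sum of LBRKO and TKO, and to 0.00 for TKO EpiLCs, where neither group held a read. Under the same choice Phf11c turned to -0.080 and -0.064 for the passage of LBRKO and TKO against WT, and LTRIS2_dup1161 to -0.091 in TKO mES cells. In multimapped counts Phf11b turned to 0.18 (TKO) and 0.061 (QKO) against WT and to -0.12 for QKO against TKO in mES cells, and Phf11c to -0.0029 for the passage of TKO against WT. None of these differences passed the test in either form.

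Leaving out 1 library gave, for Phf11b in mES cells, -0.37 to 0.090 (LBRKO), -0.36 to 0.15 (TKO) and -0.15 to 0.075 (QKO) against WT, -0.19 to 0.31 for QKO against TKO and -0.14 to 0.50 for QKO against the sum. It gave -0.30 to 0.43 for Phf11c in TKO EpiLCs, -0.25 to 0.19 and -0.45 to 0.27 for Phf11c in the passage of LBRKO and TKO against WT, and -0.030 to 0.13 for LTRIS2_dup1161 in TKO mES cells.

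With WT replicates 1 to 4 alone, 5 of 20 TE copies were called in QKO and 0 in TKO mES cells. With WT replicates 5 to 8 alone, 1 copy was called in LBRKO EpiLCs, 1 in TKO EpiLCs and 0 for the passage of LBRKO against WT. Leaving out 1 library gave 0 to 2 copies called in TKO mES cells. The summed CPM of copies outside exons exceeded WT replicates 1 to 4 by 14.0 in QKO mES cells (exact permutation, adjusted p = 0.0714), 4.77 in TKO mES cells (adjusted p = 0.0952), 1.27 in LBRKO EpiLCs (exact permutation, adjusted p = 0.0714) and 0.10 in TKO EpiLCs (adjusted p = 0.686), where 4 against 4 libraries allow no unadjusted exact p below 0.0286. Without 1 library the TKO EpiLC difference lay between -0.22 and 0.057. Depth limits Phf11a and Phf11b, which held 40 and 261 reads over 40 libraries.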
